A study of Saccharomyces cerevisiae with 17 samples.

Results

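The difference that depletion of the exonuclease Xrn1 makes to the transcript response of budding yeast, Saccharomyces cerevisiae, 10 min after a salt shock was measured as an interaction: the log2 change from 0 to 10 min in depleted cells (Xrn1-AID) minus the same change in undepleted cells (Xrn1-WT). It was taken over all genes, from 12 of the 17 libraries of the series, 3 in each of 4 groups. All cells were of strain BY25598, MATa, with ura3-1::ADH1-OsTIR1-9Myc(URA3), which drives the rice auxin receptor from the ADH1 promoter, with the marker alleles can1-100, trp1-1, his3-11,15 and ade2-1, the leu2 double allele of mutations 3 and 112, and XRN1-AID (HIS), an Xrn1 fused to an auxin-inducible degron. The 2 Xrn1-AID groups had 500 µM auxin for 30 min, which by the series' design text left under 10% of the Xrn1 protein, and were sampled without salt (0 min) or after 10 min in 0.4 M NaCl. The 2 Xrn1-WT groups were the same cells without auxin, sampled at the same times in salt, and no solvent control is named. Both arms therefore carry the degron and the receptor, and auxin itself and loss of Xrn1 cannot be told apart. Nothing in the labels ties replicates to separate cultures, and the spread behind each p-value may thus be technical.

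Xrn1 is the main cytoplasmic 5′ to 3′ exonuclease of yeast and degrades decapped mRNA, the last step of the major decay route, and it has also been tied to transcription in the nucleus. High external salt activates the MAP kinase Hog1, which induces glycerol synthesis and uptake genes, and the general stress factors Msn2 and Msn4, while genes of ribosome production are shut down for a time. Because a level after 10 min depends on both synthesis and decay, the response of each transcript in the absence of Xrn1 is the quantity compared here.

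The XRN1 transcript cannot check the depletion, which acts on the protein. Its level was 24.4, 38.5 and 12.2 counts per M counts (CPM, scaled by TMM factors) in unstressed Xrn1-WT libraries and 64.7, 48.9 and 61.9 CPM in unstressed Xrn1-AID ones. At 10 min the values were 46.9, 20.9 and 39.2 CPM in Xrn1-WT and 48.9, 51.7 and 52.0 CPM in Xrn1-AID. The arms did not overlap at either time. Of the 6195 genes tested the arms did not overlap in 2691 without salt and in 3079 at 10 min. The XRN1 interaction of -0.72 ± 0.49 log2 (SE) did not pass (edgeR adjusted p = 0.496).

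Promoter stretches of 4 called genes are shown because the genes are described in detail in the results and each stretch holds a match to the motif of a factor known to control the gene. SSA4 and APJ1 encode chaperones, CIT2 a citrate synthase and PHM6 a phosphate-regulated protein. The sequences are from the RefSeq annotation of R64 (sacCer3) and run 5′ to 3′ on the gene's strand from 300 bases before the start codon, for 180 bases, so that they end 120 bases before it. Capitals mark TTCNNGAA, a pair of heat shock units read by Hsf1, in SSA4 (chrV:364289-364468, plus strand) and APJ1 (chrXIV:481091-481270, plus strand). They mark GTGAC, the R box of the retrograde factors Rtg1 and Rtg3, in CIT2 (chrIII:122449-122628, minus strand), and CACGTG, read by the phosphate factor Pho4, in PHM6 (chrIV:1022442-1022621, minus strand).
SSA4: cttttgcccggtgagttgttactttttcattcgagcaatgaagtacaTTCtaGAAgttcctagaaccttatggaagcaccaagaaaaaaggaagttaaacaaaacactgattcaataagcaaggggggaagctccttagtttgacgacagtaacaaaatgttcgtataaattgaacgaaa
APJ1: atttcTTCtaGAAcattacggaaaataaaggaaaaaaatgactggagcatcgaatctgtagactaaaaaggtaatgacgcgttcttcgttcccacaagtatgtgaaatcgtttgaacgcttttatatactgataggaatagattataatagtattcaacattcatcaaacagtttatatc
CIT2: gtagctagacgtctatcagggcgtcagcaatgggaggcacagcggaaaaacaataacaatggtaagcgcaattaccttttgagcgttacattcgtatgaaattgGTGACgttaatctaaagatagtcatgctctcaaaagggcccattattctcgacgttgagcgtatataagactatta
PHM6: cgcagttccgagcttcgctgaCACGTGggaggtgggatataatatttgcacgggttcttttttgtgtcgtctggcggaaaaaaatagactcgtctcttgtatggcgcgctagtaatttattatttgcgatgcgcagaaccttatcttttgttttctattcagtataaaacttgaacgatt

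In all, 6 motifs were searched on both strands. TTCNNGAA or GAANNTTC, each of which reads the same on both strands, occurred in 14.1% of the 5987 windows of this length before protein-coding genes. It occurred in 7 of the 30 windows of genes called lower (23.3%) and in 2 of the 18 of genes called higher (11.1%). The chaperone gene BTN2, also called lower, was not among the 7. The longer heat shock element of 3 alternating units, which contains the pair, was in 0.618% of all windows and in 0 of the 48. GTCAC or its reverse complement GTGAC was in 18.6% of all windows, in 7 of the 30 and in 2 of the 18. CACGTG, which is its own reverse complement, was in 2.94% of all windows, in 2 of the 30 and in 1 of the 18. AGGGG or CCCCT, the stress response element read by Msn2 and Msn4, was in 14.9% of all windows, in 5 of the 30 and in 0 of the 18. SSA4 was among the 5, and this match is not marked in its stretch above. TGACTC or GAGTCA, read by Gcn4, was in 5.43% of all windows, in 4 of the 30 and in 0 of the 18. The window and the 4 genes shown were chosen after matches had been seen: windows from the same first base that ended at the start codon or 60 bases before it were searched first, and the window was shortened to leave out transcribed leader sequence. In the window that ended at the start codon, the pair of heat shock units was in 22.4% of all windows, in 12 of the 30 and in 4 of the 18. In the one that ended 60 bases before it, the pair was in 18.9%, in 11 of the 30 and in 4 of the 18. These are matches of letters only, and no count of them was tested.

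The 12 libraries held 16.5 to 30.4 M counts, so that 3 counts, the floor of a count of 0, came to 0.0986 to 0.181 CPM. Floors cover counting error only. The deepest library, Xrn1-WT 0 min replicate 3, also deviated most from its group: the SD of its log2 deviations over genes was 0.494. The 2 other unstressed Xrn1-WT libraries had 0.269 and 0.415, Xrn1-WT 10 min libraries 0.291 to 0.419, and the 6 Xrn1-AID libraries 0.174 to 0.271. In replicate 3 of unstressed Xrn1-WT the cytosolic ribosomal protein genes sat at a median of 0.54 log2 above the group's mean, and in replicate 1 the Msn2/Msn4 stress genes sat 0.42 above it. Across 5770 genes, deviations followed gene length with a Spearman correlation of -0.587 to 0.493 by library in Xrn1-WT and of -0.382 to 0.343 in Xrn1-AID, given as a description. Small nuclear and nucleolar RNA took 0.0187% to 0.0572% of the counts in Xrn1-WT and 0.00881% to 0.0149% in Xrn1-AID, with no overlap between arms. The part of these differences in the results below was not tested.

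Of 6195 genes tested, 48 (0.775%) differed between the arms' responses at a Benjamini-Hochberg adjusted p under 0.05 in edgeR's quasi-likelihood test. The response was higher in Xrn1-AID for 18 (0.291%) and lower for 30 (0.484%). At an unadjusted p under 0.05 there were 1081 genes (17.4%), of which 726 were higher (11.7%) and 355 lower (5.73%). The median interaction of all genes was 0.09 log2, and 3578 of the 6195 had a positive one. Within the arms the salt response was broad. In Xrn1-WT 2740 genes were called (44.2%), of which 1218 rose (19.7% of all tested) and 1522 fell (24.6%). In Xrn1-AID 2202 were called (35.5%), of which 1174 rose (19.0% of all tested) and 1028 fell (16.6%). With libraries scaled by total count alone, all genes shifted by a median of -0.50 log2 in the Xrn1-WT response and -0.36 in the Xrn1-AID response, and 586 rose and 2463 fell in Xrn1-WT and 608 rose and 1553 fell in Xrn1-AID. Rises and falls below are relative to the TMM scaling. In the difference between arms that scaling moved the median of all genes to 0.20 and left 0 genes called by edgeR, with 758 at an unadjusted p under 0.05 and a smallest adjusted p of 0.0664. The 48 genes had the same sign in it, moved by 0.05 to 0.15.

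The calls stood close to the threshold, with adjusted p from 0.0244 to 0.0496, and the count depended on single libraries. Without unstressed Xrn1-WT replicate 1 edgeR called 0 genes, without replicate 2 it called 129 (69 higher, 60 lower) and without replicate 3 it called 137 (81 higher, 56 lower). Without unstressed Xrn1-AID replicates 1, 2 and 3 the counts were 19, 0 and 0. Of the 48 genes, 48 were among the 129 and 47 among the 137. Without Xrn1-WT 10 min replicates 1, 2 and 3 the counts were 0, 24 and 84, and they were 0 without any 1 of the 3 Xrn1-AID 10 min libraries. In the 7 omissions with 0 calls the smallest adjusted p was 0.059 to 0.0727 and 854 to 986 genes had an unadjusted p under 0.05. No gene was called in all 12 omissions. The size of the differences moved less than their calls. Each of the 48 kept its sign in the 12 omissions, at 0.81 to 1.18 times its log2 value with all libraries. The highest edgeR adjusted p of each lay between 0.0727 and 0.14. The 48 were chosen from these same libraries, which favours a kept sign here and in the other settings.

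**Figure D1:**
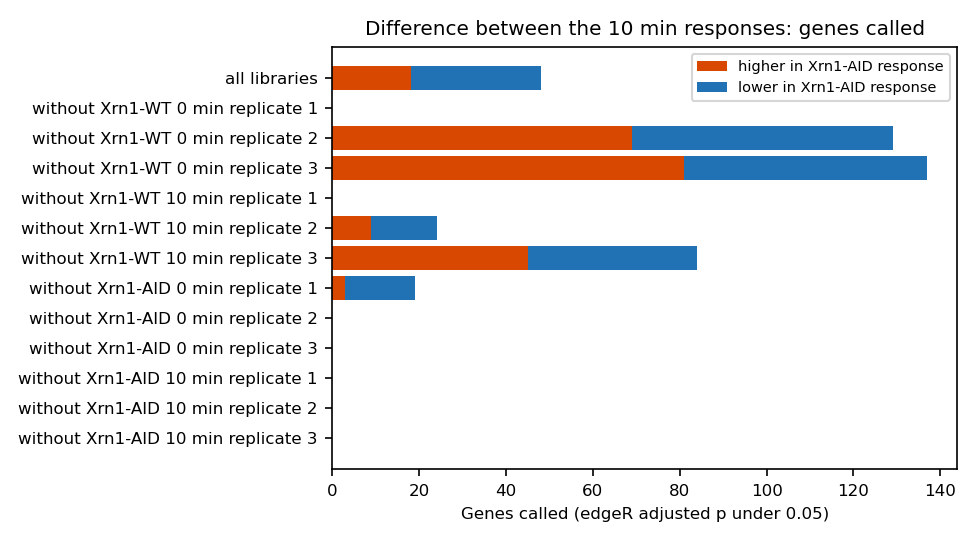
Number of genes called as different between the 10 min responses (horizontal axis, edgeR adjusted p under 0.05) with all libraries and with each of the 12 libraries left out in turn; orange is a higher and blue a lower response in Xrn1-AID. The count is 48 with all libraries, 0 in 7 omissions and 137 without Xrn1-WT 0 min replicate 3.

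The called genes fell into groups by what each arm did. Of the 30 with a lower response, 6 rose in both arms but less in Xrn1-AID (BTN2, SSA4, APJ1, SNA4, FIT1 and CEM1), and 6 rose in Xrn1-WT and did not pass in Xrn1-AID (YBR032W, SIM1, SAH1, VRP1, SEC31 and GSC2). Another 6 rose in Xrn1-WT and fell in Xrn1-AID (FLO11, ATG41, MIR1, SCW10, SEC23 and TAH11), 8 fell in Xrn1-AID and did not pass in Xrn1-WT (ALG3, SEC61, MET6, FLR1, PMT2, PHO91, PTK1 and ILV1), and 4 fell in both (TIR4, FIG2, ARN1 and MEP2). Of the 18 with a higher response, 9 fell in Xrn1-WT and did not pass in Xrn1-AID (among them VFA1, SPC105, MTF2, INA22, ULP1, FAR10, CEF1 and COG8) and 6 fell in both (SHQ1, CWC22, RMP1, PRP9, THI80 and PHM6). CIT2 rose in both, and SNX3 and CAD1 rose in Xrn1-AID and did not pass in Xrn1-WT. The median size was 1.23 log2 in the lower group, from 0.87 to 3.55, and 1.01 in the higher group, from 0.84 to 1.77. The 3.55 belongs to YBR032W, whose mean level was 1.2 CPM. The median of the genes' mean levels was 84 CPM in the lower and 23.4 CPM in the higher group, beside 39.4 CPM over all genes tested.

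**Figure D2:**
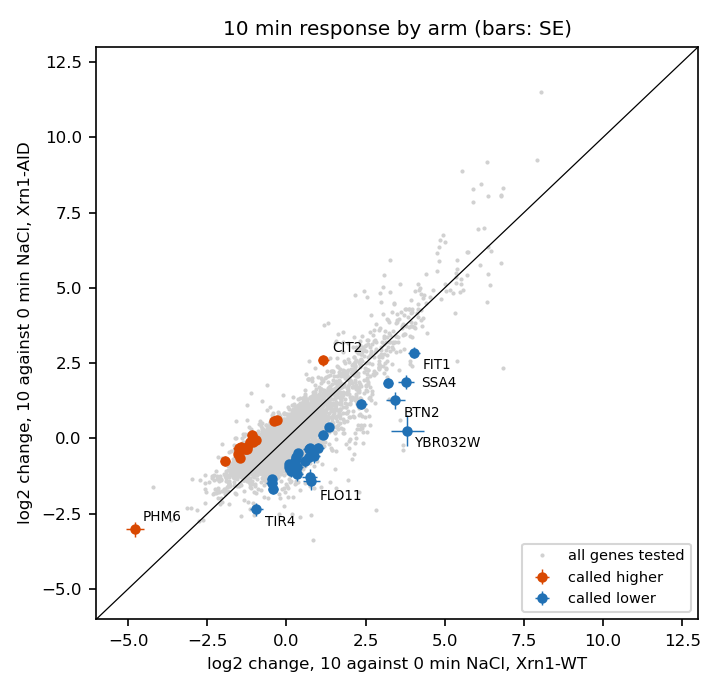
Log2 change from 0 to 10 min in NaCl in Xrn1-WT (horizontal axis) and in Xrn1-AID (vertical axis) for the 6195 genes tested; the line marks equal change, and bars on the 48 called genes are SE. Blue points, below the line, are the 30 with a lower response in Xrn1-AID, BTN2 among them, and orange points, above it, are the 18 with a higher one, CIT2 among them.

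The chaperone genes BTN2, SSA4 and APJ1 rose less in Xrn1-AID. BTN2 (chrVII:772454-773686), whose product gathers misfolded proteins into deposits, stood at 74.7, 78.1 and 55.2 CPM in unstressed Xrn1-WT and at 615, 539 and 1107 CPM after 10 min. In Xrn1-AID it went from 64.4, 68.3 and 63.8 CPM to 150, 183 and 139 CPM. The arms overlapped without salt and were far apart with it, all Xrn1-AID libraries lying below all Xrn1-WT ones. The log2 changes were 3.44 ± 0.30 and 1.26 ± 0.28, a difference of -2.18 ± 0.39 (edgeR adjusted p = 0.0244), and -2.33 to -1.80 in the 12 omissions.

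SSA4 (chrV:364589-366517), a stress-induced Hsp70, began at 28.0, 32.2 and 20.5 CPM in Xrn1-WT and reached 291, 291 and 524 CPM. In depleted cells it went from 47.6, 60.6 and 59.8 CPM to 218, 207 and 186 CPM. Depleted cells thus began higher and ended lower, with no overlap at either time, and the difference was -1.91 ± 0.32 (edgeR adjusted p = 0.0244). APJ1 (chrXIV:481391-482977), a J-domain partner of Hsp70, rose from 23.3, 27.6 and 18.5 CPM to 218, 190 and 235 CPM in Xrn1-WT. In Xrn1-AID it rose from 29.2, 26.6 and 28.7 CPM to 99.1, 98.2 and 105 CPM. The arms overlapped without salt and not with it, and the difference was -1.37 ± 0.23 (edgeR adjusted p = 0.0244).

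Most of the Hsf1 chaperone list had negative values. Of its 30 tested genes 2 were called (SSA4 and BTN2, both lower), 2 had a positive interaction, and 12 were lower and 0 higher at an unadjusted p under 0.05. The list's median was -0.54 log2, beside 0.09 for all genes. Of all 6195 genes 0.484% were called lower, 3578 were positive, and 5.73% were lower at an unadjusted p under 0.05. In the list DESeq2 called 0 higher and 7 lower, and limma voom with sample weights 1 and 12. Over all genes DESeq2 called 134 higher and 172 lower, and voom 928 and 575. In Xrn1-WT 24 of the 30 rose and in Xrn1-AID 19 did, where 19.7% and 19.0% of all genes rose. Its median lay between -0.64 and -0.29 for every one of the 9 pairs of 1 unstressed library per arm, and at -0.41 with scaling by total count.

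Iron acquisition genes showed 2 lower calls. FIT1, a cell wall mannoprotein that holds iron siderophores, rose from 8.77, 6.8 and 9.78 CPM to 151, 116 and 148 CPM in Xrn1-WT. In Xrn1-AID it rose from 15.5, 20.4 and 19.5 CPM to 119, 143 and 137 CPM. The 10 min levels overlapped, and the arms differed in the unstressed ones, so that the difference of -1.18 ± 0.25 (edgeR adjusted p = 0.0398) came with a higher start in Xrn1-AID. ARN1, a siderophore transporter, was the other call, at -1.02 ± 0.22 (edgeR adjusted p = 0.0443), while the 29 tested iron regulon genes had a median of 0.01.

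FLO11, ATG41 and MIR1 rose in one arm and fell in the other. FLO11 (chrIX:389572-393675), a cell surface flocculin needed for adhesion and invasive growth, stood at 8.88, 9.76 and 5.93 CPM in unstressed Xrn1-WT and at 18.5, 8.82 and 15.0 CPM after 10 min. Depleted cells went from 25.0, 25.3 and 30.2 CPM to 8.89, 12.7 and 8.29 CPM. The unstressed arms were apart, the 10 min arms overlapped, and the difference was -2.22 ± 0.38 (edgeR adjusted p = 0.0244). Among called genes with a mean of at least 10 CPM it was one of the 4 that a single unstressed library moved most, by 0.22 without Xrn1-WT replicate 3.

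ATG41 (chrXVI:74309-74719), needed for autophagy, stood at 26.7, 19.0 and 30.8 CPM in unstressed Xrn1-WT and at 40.9, 57.7 and 28.5 CPM at 10 min. Depleted cells went from 33.1, 42.2 and 35.9 CPM to 14.6, 16.2 and 15.1 CPM, below every other library. The difference was -2.01 ± 0.36 (edgeR adjusted p = 0.0244). MIR1 (chrX:577255-578190), the phosphate carrier of the mitochondrial inner membrane, went from 340, 300 and 386 CPM to 680, 690 and 487 CPM in Xrn1-WT. In Xrn1-AID it went from 603, 721 and 793 CPM to 493, 454 and 446 CPM. The order of the arms without salt was reversed at 10 min except that replicate 3 of Xrn1-WT lay within the Xrn1-AID range, and the difference was -1.46 ± 0.29 (edgeR adjusted p = 0.0352).

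Genes of the early secretory pathway and of the cell surface made up a further part of the lower calls, a grouping made after their values were seen. SEC23 and SEC31, subunits of the COPII vesicle coat, differed by -1.32 ± 0.23 and -1.06 ± 0.18 (both edgeR adjusted p = 0.0244). SEC61, the protein channel of the endoplasmic reticulum, differed by -1.29 ± 0.27 (edgeR adjusted p = 0.0398) and PMT2, an O-mannosyltransferase there, by -1.02 ± 0.16 (edgeR adjusted p = 0.0244). The 3 SEC genes were higher in Xrn1-AID without salt and lower at 10 min, both past the threshold, whereas PMT2 was called higher without salt and did not pass at 10 min.

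ALG3, a mannosyltransferase of N-glycan assembly, stood at 39.5, 32.7 and 25.0 CPM in unstressed Xrn1-WT and at 54.4, 37.0 and 29.5 CPM at 10 min. In Xrn1-AID it went from 79.9, 104 and 96.0 CPM to 42.2, 42.8 and 38.1 CPM. The unstressed arms were apart by more than their spread and the 10 min ones overlapped, with a difference of -1.50 ± 0.30 (edgeR adjusted p = 0.0352). TIR4, a cell wall mannoprotein, was at 12.7, 10.8 and 13.5 CPM in unstressed Xrn1-WT and at 28.1, 30.9 and 30.7 CPM in unstressed Xrn1-AID. At 10 min it was at 7.86, 5.94 and 5.34 CPM and at 5.19, 6.5 and 5.71 CPM. It fell from a higher start to the same range, and the difference was -1.41 ± 0.29 (edgeR adjusted p = 0.0371).

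FIG2, an adhesin of mating cells, showed the same order of levels. It was at 27.6, 28.1 and 37.0 CPM in unstressed Xrn1-WT and at 63.9, 54.4 and 54.6 CPM in unstressed Xrn1-AID. After salt it was at 27.0, 19.7 and 22.8 CPM and at 15.6, 20.7 and 18.2 CPM, overlapping, and the difference was -1.25 ± 0.22 (edgeR adjusted p = 0.0244). FLR1, a drug exporter of the plasma membrane, was at 41.1, 35.9 and 43.1 CPM in unstressed Xrn1-WT and 98.2, 84.7 and 79.5 CPM in unstressed Xrn1-AID. After salt it was at 49.1, 41.0 and 41.4 CPM and at 39.1, 46.0 and 41.9 CPM, and the difference was -1.18 ± 0.25 (edgeR adjusted p = 0.0414). GSC2, a catalytic subunit of glucan synthase, was the other call of the cell wall integrity list, at -1.03 ± 0.22 (edgeR adjusted p = 0.0398).

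The 35 tested cell wall integrity genes had a median of -0.42 log2, with 5 positive, and 0 higher and 9 lower at an unadjusted p under 0.05. The 24 pleiotropic drug resistance genes had a median of -0.45, with 3 positive, and 0 higher and 9 lower. Without salt 13 and 11 of these genes were higher in Xrn1-AID, where 16.2% of all genes were. Both medians were negative for each of the 9 pairs of unstressed libraries, at -0.63 to -0.10 and -0.72 to -0.03. With the correction for gene length and GC content described below both shrank to -0.26. Of all 6195 genes 3578 were positive, with a median of 0.09, and 11.7% were higher and 5.73% lower at an unadjusted p under 0.05. In the cell wall list DESeq2 called 0 higher and 5 lower, and voom 0 and 11. In the drug resistance list DESeq2 called 0 and 2, and voom 0 and 10. Over all genes DESeq2 called 134 higher and 172 lower, and voom 928 and 575.

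MET6 and ILV1, enzymes of methionine and isoleucine synthesis, fell in Xrn1-AID and did not pass in Xrn1-WT. MET6 was at 328, 494 and 363 CPM in unstressed Xrn1-WT and at 483, 390 and 441 CPM at 10 min. The Xrn1-AID libraries went from 364, 337 and 456 CPM to 201, 173 and 174 CPM, below every other library. The difference was -1.23 ± 0.26 (edgeR adjusted p = 0.0398) and moved to -1.42 without Xrn1-WT 0 min replicate 2, its highest unstressed library. ILV1 went from 202, 226 and 192 CPM to 238, 216 and 200 CPM in Xrn1-WT and from 324, 270 and 292 CPM to 150, 173 and 173 CPM in Xrn1-AID. It crossed from above to below Xrn1-WT with no overlap at either time, a difference of -0.92 ± 0.18 (edgeR adjusted p = 0.0352). SAH1, which recycles the product of methylation reactions, was also lower, at -1.07 ± 0.24 (edgeR adjusted p = 0.045). The lists as wholes lay closer to all genes, with medians of -0.17 over 26 sulfur and methionine genes and -0.14 over 59 amino acid biosynthesis genes.

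CIT2 and PHM6 had the largest higher responses. CIT2 (chrIII:120946-122328), the peroxisomal citrate synthase of the glyoxylate cycle and the standard target of retrograde signalling, rose from 60.0, 73.4 and 43.3 CPM to 136, 111 and 150 CPM in Xrn1-WT. In Xrn1-AID it rose from 41.4, 38.2 and 40.0 CPM to 245, 248 and 226 CPM. Depleted cells began below and ended above, with no overlap at either time. The changes were 1.17 ± 0.17 and 2.59 ± 0.18 log2, a difference of 1.42 ± 0.24 (edgeR adjusted p = 0.0244), which became 1.63 without unstressed Xrn1-WT replicate 3 (adjusted p = 0.00274) and 1.23 without replicate 2 (adjusted p = 0.0207).

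PHM6 (chrIV:1022007-1022321), a protein of unknown function induced by phosphate starvation, fell in both arms. It was at 38.4, 33.2 and 22.7 CPM in unstressed Xrn1-WT and at 1.20, 1.11 and 1.07 CPM at 10 min. The Xrn1-AID libraries went from 17.2, 16.7 and 16.1 CPM to 2.85, 1.73 and 1.60 CPM. The fall was -4.79 ± 0.28 log2 against -3.02 ± 0.25, from a higher to a lower level in Xrn1-WT, and the difference was 1.77 ± 0.36 (edgeR adjusted p = 0.0371). PHO91, a phosphate transporter of the vacuole, was called in the opposite direction (-1.02 ± 0.20, edgeR adjusted p = 0.0347), and the 24 phosphate regulon genes had a median of -0.11.

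Of the other 16 higher calls, 14 fell in Xrn1-WT and either fell less or did not pass in Xrn1-AID. THI80, which makes thiamine pyrophosphate, fell from 52.3, 47.4 and 69.3 CPM to 14.5, 15.8 and 13.9 CPM in Xrn1-WT and from 23.7, 26.4 and 25.3 CPM to 15.9, 15 and 14 CPM in Xrn1-AID. COG8, a Golgi tether, fell from 66.8, 66.8 and 86.0 CPM to 31.1, 34.6 and 37.7 CPM in Xrn1-WT, and in Xrn1-AID was at 33.0, 47.6 and 51.9 CPM and then 54.0, 47.5 and 42.3 CPM. Both genes were lower in Xrn1-AID without salt, and THI80 reached the same range in both arms at 10 min, while COG8 was higher in each Xrn1-AID library there. The differences were 1.19 ± 0.22 (edgeR adjusted p = 0.0244) and 1.21 ± 0.24 (edgeR adjusted p = 0.0362).

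CEF1, a splicing factor, showed the difference at 10 min. It went from 21.3, 25.9 and 29.9 CPM to 9.77, 6.87 and 10.4 CPM in Xrn1-WT and from 20.9, 25.4 and 26.2 CPM to 21.3, 17 and 19.8 CPM in Xrn1-AID, a difference of 1.19 ± 0.25 (edgeR adjusted p = 0.0398). PRP9 and CWC22, also of the spliceosome, differed by 1.02 ± 0.18 (edgeR adjusted p = 0.0244) and 0.91 ± 0.18 (edgeR adjusted p = 0.0352), and SHQ1 and RMP1, which serve small nucleolar particles and RNase MRP, by 0.84 ± 0.19 (edgeR adjusted p = 0.0474) and 0.94 ± 0.19 (edgeR adjusted p = 0.0352). This group of RNA processing genes was put together after the values were seen.

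ULP1, a SUMO protease, fell from 35.5, 36.6 and 30.7 CPM to 13.7, 10.4 and 12.2 CPM in Xrn1-WT, and in Xrn1-AID was at 15.4, 18.0 and 20.4 CPM and then 13.9, 15.8 and 12.1 CPM. FAR10, of the complex that holds pheromone arrest, fell from 21.1, 20.5 and 17.7 CPM to 7.79, 5.85 and 8.26 CPM and was in Xrn1-AID at 12, 13.6 and 16.3 CPM and then 10.5, 12.5 and 11.4 CPM. INA22, an assembly factor of the mitochondrial ATP synthase, fell from 21.9, 18.9 and 20.9 CPM to 8.28, 9.94 and 9.61 CPM and was in Xrn1-AID at 12.7, 12.8 and 15.1 CPM and then 13.4, 10.4 and 13.4 CPM. Each began lower in every Xrn1-AID library than in any Xrn1-WT one. The differences were 1.14 ± 0.24, 1.15 ± 0.24 and 1.03 ± 0.23, with edgeR adjusted p of 0.0398, 0.0398 and 0.0496.

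**Figure D3:**
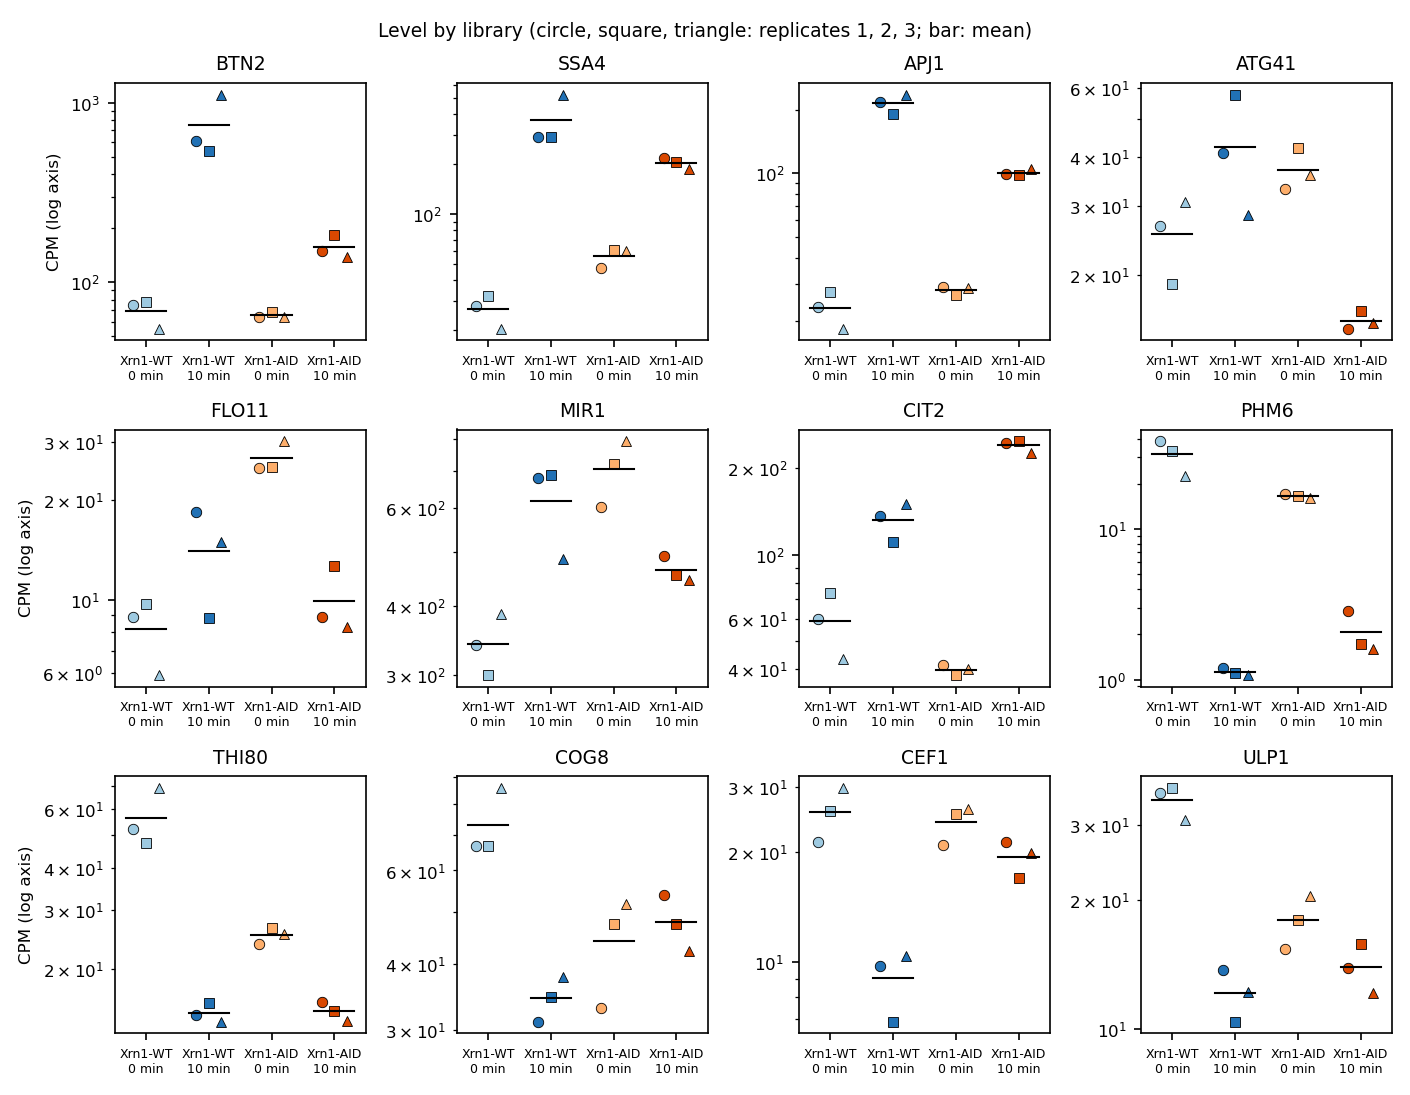
Level of 12 called genes in each of the 12 libraries (vertical axes, CPM on log scales) by arm and time; circle, square and triangle are replicates 1, 2 and 3 and the bar is the group's mean. In BTN2 the Xrn1-AID libraries at 10 min (139 to 183) lie below the Xrn1-WT ones (539 to 1107), and in CIT2 they lie above (226 to 248 against 111 to 150).

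The same differences can be read as gaps between the arms at each time. Of the 30 genes with a lower response, 17 were called higher in Xrn1-AID without salt and did not pass at 10 min, 6 were called lower at 10 min only (YBR032W, BTN2, ATG41, APJ1, SCW10 and MET6), and 7 were higher without salt and lower at 10 min. Of the 18 with a higher response, 6 were called lower in Xrn1-AID without salt only, 6 higher at 10 min only, and 6 both. The levels of the arms did not overlap in 40 of the 48 without salt and in 32 at 10 min, beside 2691 and 3079 of the 6195 tested. Over all genes tested the arms differed in 2019 genes without salt (32.6%) and in 1749 at 10 min (28.2%, with 1072 higher and 677 lower). The split at 10 min turned on the scaling, with 835 higher and 314 lower with total counts alone and 846 higher and 861 lower with DESeq2 size factors. Each library pooled a whole culture, so fewer cells with a transcript and less of it per cell cannot be told apart.

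The split of the calls by direction turned with a correction for gene length and GC content, added after the data were seen. It called 51 genes, of which 34 were higher and 17 lower, against 18 and 30 without it, and 24 of the 48 were among them. Each of the 48 had the same sign, moved by -0.29 to 0.49. Of the 21 called genes described under the naming rule, 11 passed with it (FLO11, BTN2, ATG41, SSA4, MIR1, APJ1, CIT2, CEF1, FAR10, ILV1 and MET6) and 10 did not, at edgeR adjusted p of 0.0505 to 0.104.

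Mitochondrial ribosomal protein genes had positive values nearly throughout, without a call by edgeR. Of 72 tested, 71 had a positive interaction, with a median of 0.47 log2 beside 0.09 for all genes, and 33 were higher and 0 lower at an unadjusted p under 0.05, where 11.7% of all genes were higher. In Xrn1-WT 41 fell and 2 rose, and in Xrn1-AID 2 fell and 10 rose. edgeR called 0 of them in the interaction, DESeq2 5 and limma voom with sample weights 43, all higher. Over all 6195 genes tested DESeq2 called 134 higher and 172 lower, and voom 928 and 575. The list's median interaction stayed between 0.33 and 0.63 over the 9 pairs of unstressed libraries. Ribosome biogenesis genes, which supply the cytosolic ribosome, had a smaller median of 0.26 over 145 genes, with 110 positive. Of these genes 22 were higher and 1 lower at an unadjusted p under 0.05, and edgeR called 0. DESeq2 called 4 higher and 1 lower, and voom 22 and 4, the higher counts lying near each tool's share over all genes. In Xrn1-WT 119 of the 145 fell and in Xrn1-AID 94, where 24.6% and 16.6% of all genes fell.

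For STL1, HSP12 and CTT1 the size of the interaction depended most on a single unstressed library, Xrn1-WT 0 min replicate 1. STL1, the glycerol importer, stood at 17.9 CPM there and at 1.60 and 2.29 CPM in replicates 2 and 3, and at 0.586, 1.37 and 0.662 CPM in unstressed Xrn1-AID. After 10 min in salt Xrn1-WT libraries held 1758, 1509 and 2428 CPM and Xrn1-AID libraries 2559, 2360 and 2533 CPM. Every Xrn1-AID library was lower without salt, and at 10 min only replicate 3 of Xrn1-WT lay within the Xrn1-AID range. The difference was 3.45 ± 0.92 log2 (edgeR adjusted p = 0.0782), 1.57 without replicate 1 (adjusted p = 0.166) and 3.91 without replicate 3 (adjusted p = 0.0333). In differences of log2 CPM it was 4.71, 1.31 and 1.80 with 1 unstressed Xrn1-WT library at a time as the baseline. Over the 9 pairs of single libraries it was 0.62 to 5.12. These values are on another measure than edgeR's 3.45, and the part of the measure in the shift was not tested.

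HSP12, a membrane-stabilising stress protein, had the same library out of line, at 241 CPM against 19.8 and 33.7 CPM, with 9.69, 13.9 and 14.4 CPM in unstressed Xrn1-AID. The 10 min levels overlapped, at 3411, 5469 and 4815 CPM in Xrn1-WT against 6846, 5055 and 6068 CPM in Xrn1-AID. The difference of 3.35 ± 0.87 (edgeR adjusted p = 0.0753) became 1.48 without replicate 1 (adjusted p = 0.124) and 3.78 without replicate 3 (adjusted p = 0.0306). CTT1, the cytosolic catalase, began in Xrn1-WT at 67.4, 13.1 and 20.0 CPM and in Xrn1-AID at 17.2, 17.6 and 17.7 CPM. At 10 min it stood at 3392, 3087 and 4960 CPM and at 5756, 5091 and 5933 CPM. Without salt the arms overlapped, and at 10 min every Xrn1-AID library was higher. The difference of 1.48 ± 0.58 (edgeR adjusted p = 0.194) became 0.47 without replicate 1 (adjusted p = 0.546). Voom called it higher, at 2.12 (adjusted p = 0.0104), and DESeq2 did not (adjusted p = 0.111).

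The other genes of the panel were not called by edgeR either. GPD1, which makes glycerol, went from 181, 85.3 and 92.1 CPM to 9055, 10095 and 10425 CPM in Xrn1-WT. In Xrn1-AID it went from 143, 164 and 138 CPM to 12004, 11069 and 13738 CPM, a difference of 0.00 ± 0.40 (edgeR adjusted p = 0.999), with -0.43 without unstressed Xrn1-WT replicate 1 (adjusted p = 0.598) and -0.63 to 0.71 over the pairs of single unstressed libraries. Its arms overlapped without salt, and at 10 min every Xrn1-AID library was higher. ENA1, the sodium pump, had a difference of -0.25 ± 0.30 (edgeR adjusted p = 0.728) and FUS1, a mating gene, one of -0.31 ± 0.29 (edgeR adjusted p = 0.629). ENA1 has near-identical neighbours, so that its counts are uncertain.

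NOP1 and RPL3, of ribosome production, were not called by edgeR. NOP1, the methyltransferase of nucleolar particles, went from 734, 774 and 693 CPM to 575, 532 and 393 CPM in Xrn1-WT and from 711, 745 and 800 CPM to 321, 281 and 297 CPM in Xrn1-AID. The 10 min levels of the arms did not overlap, and the difference was -0.77 ± 0.22 (edgeR adjusted p = 0.096), with -0.93 to -0.60 over the pairs and -0.92 without Xrn1-WT 10 min replicate 3 (adjusted p = 0.0454). DESeq2 and limma voom with sample weights called NOP1 lower, at -0.85 (adjusted p = 0.0141) and -0.84 (adjusted p = 0.0032). With the correction for gene length and GC content it shrank to -0.47 (edgeR adjusted p = 0.273). It was -0.65 without both Xrn1-WT 0 min replicate 3 and Xrn1-WT 10 min replicate 2 (edgeR adjusted p = 0.14). NOP1 ran against its list, the ribosome biogenesis genes, of which 110 of 145 were positive with a median of 0.26. RPL3 stood at 6561, 5865 and 19415 CPM in unstressed Xrn1-WT, at 4599, 7816 and 3812 CPM there at 10 min, and in Xrn1-AID at 6846, 9203 and 7885 CPM and then 9086, 7578 and 8480 CPM. Replicate 3 without salt was far above all others, and the difference of 1.04 ± 0.54 (edgeR adjusted p = 0.332) became 0.30 without it (adjusted p = 0.662).

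**Figure D4:**
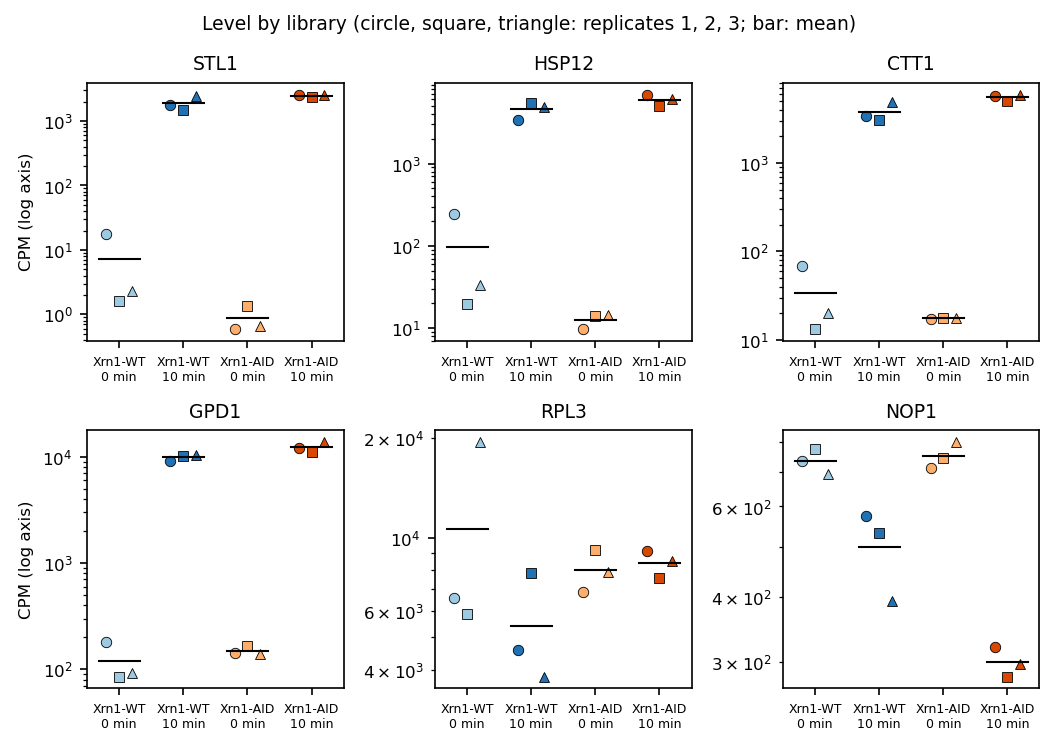
Level of STL1, HSP12, CTT1, GPD1, RPL3 and NOP1 in each of the 12 libraries (vertical axes, CPM on log scales) by arm and time; circle, square and triangle are replicates 1, 2 and 3 and the bar is the group's mean. Xrn1-WT 0 min replicate 1 is the highest unstressed library in STL1 (17.9), HSP12 (241) and CTT1 (67.4), and replicate 3 is the highest in RPL3 (19415).

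The medians of the stress lists also varied by library. The 34 Hog1 osmostress effectors had a median of 0.38 log2 with 25 positive, and 9 higher and 0 lower at an unadjusted p under 0.05. edgeR called 0 of them, DESeq2 3 higher and voom 18. Of all 6195 genes 3578 were positive, and DESeq2 called 134 higher and voom 928. In differences of log2 CPM, the Hog1 list's median was 0.60, 0.05 and 0.19 with unstressed Xrn1-WT replicate 1, 2 or 3 alone as the baseline. For the 53 Msn2/Msn4 general stress genes the median was 0.42 with 37 positive, 18 higher and 1 lower, the lower call being SSA4, and it was 0.86, -0.03 and 0.39 by baseline. In both lists replicate 1 gave the largest value and replicate 2 one near 0. With that replicate 1 left out, the medians were 0.15 (Hog1) and 0.24 (Msn2/Msn4). With Xrn1-WT 10 min replicate 1 left out, they were 0.25 and 0.20. Nearly all genes of both lists rose in both arms. In Xrn1-WT and Xrn1-AID 31 and 32 of the Hog1 list rose, and 51 and 47 of the Msn2/Msn4 list. Of all genes tested 19.7% and 19.0% rose.

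For lists of highly expressed housekeeping genes, replicate 3 of unstressed Xrn1-WT was the baseline that stood apart. The 137 cytosolic ribosomal protein genes had a median of -0.12 with 38 positive, 3 higher and 1 lower at an unadjusted p under 0.05 and 0 called by edgeR (DESeq2 called 1 higher and 1 lower, voom 4 and 9). By baseline the median was -0.31, -0.47 and 0.36, and over the 9 pairs it ran from -0.68 to 0.50. It was 0.23 without Xrn1-WT 10 min replicate 2 and 0.02 without Xrn1-WT 0 min replicate 2, so that it has no settled direction. Many of these genes are near-identical pairs whose counts are uncertain. The 26 glycolytic and gluconeogenic genes had a median of -0.41 with 3 positive, 0 higher and 5 lower at an unadjusted p under 0.05, and 0 called by edgeR (DESeq2 called 5 lower, voom 11), and -0.62, -0.51 and 0.01 by baseline. This median was -0.23 without Xrn1-WT 10 min replicate 2 and -0.19 with the correction for gene length and GC content.

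Several lists lay near all genes. The 20 nonsense-mediated decay targets, which Xrn1 degrades after decapping, had a median of -0.02 (0.09 with scaling by total count), and edgeR called FLR1 alone (DESeq2 called 1 lower, voom 2 higher and 5 lower). Of these 20 targets 11 were called higher in Xrn1-AID without salt, where 16.2% of all genes were, and 10 at 10 min, where 17.3% were. The 30 pheromone pathway genes had a median of -0.06, with FIG2 called lower, and the 67 mRNA decay factor genes one of 0.15, with 0 called by edgeR and 11 higher and 1 lower at an unadjusted p under 0.05 (DESeq2 called 0 and 1, voom 15 and 6). The 42 nuclear oxidative phosphorylation genes had a median of 0.02, 0 calls by edgeR, and 1 higher and 2 lower at an unadjusted p under 0.05 (DESeq2 called 0 and 1, voom 7 and 3).

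In the remaining lists edgeR called 0 genes. Medians were 0.16 over 20 trehalose and glycogen genes (2 higher and 1 lower at an unadjusted p under 0.05), 0.22 over 34 proteasome genes (5 and 1), 0.14 over 27 RNA polymerase I and III genes (4 and 2) and 0.12 over 44 cell cycle genes (6 and 0). They were -0.24 over 26 ergosterol genes (0 and 4), -0.22 over 24 purine and one-carbon genes (1 and 4) and -0.25 over 18 hexose transporter genes (1 and 1). All 8 core histone genes were positive, with a median of 0.53 (2 and 0). In these 8 lists DESeq2 called 0 to 3 genes and voom 3 to 12, beside 306 and 1503 of all 6195 genes. The share called by voom differed between the lists. Voom called 6 of the 8 core histone genes, all higher, and 9 of the 24 purine and one-carbon genes, all lower. It called 11 of the 34 proteasome genes higher and 1 lower. Of the 44 cell cycle genes it called 4 higher and 1 lower, and of the 18 hexose transporter genes 1 and 2.

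Markers of mating type alpha and of meiosis, which a MATa haploid should not use, had a median of 0.05 over 14 genes, with 0 called by edgeR, DESeq2 or voom and 0 at an unadjusted p under 0.05. Mitochondrially encoded genes had a median interaction of -1.56 over 8 tested genes, with 0 called by any of the 3 tools. Their levels were too low for a direction of the interaction. Mitochondrial reading frames took 0.000363% to 0.00275% of the counts in Xrn1-WT and 4.4e-06% to 6.41e-05% in Xrn1-AID, with no overlap between arms. Between arms edgeR called 1 of the 8 lower in Xrn1-AID at 0 min and 6 at 10 min. The cause was not tested.

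**Figure D5:**
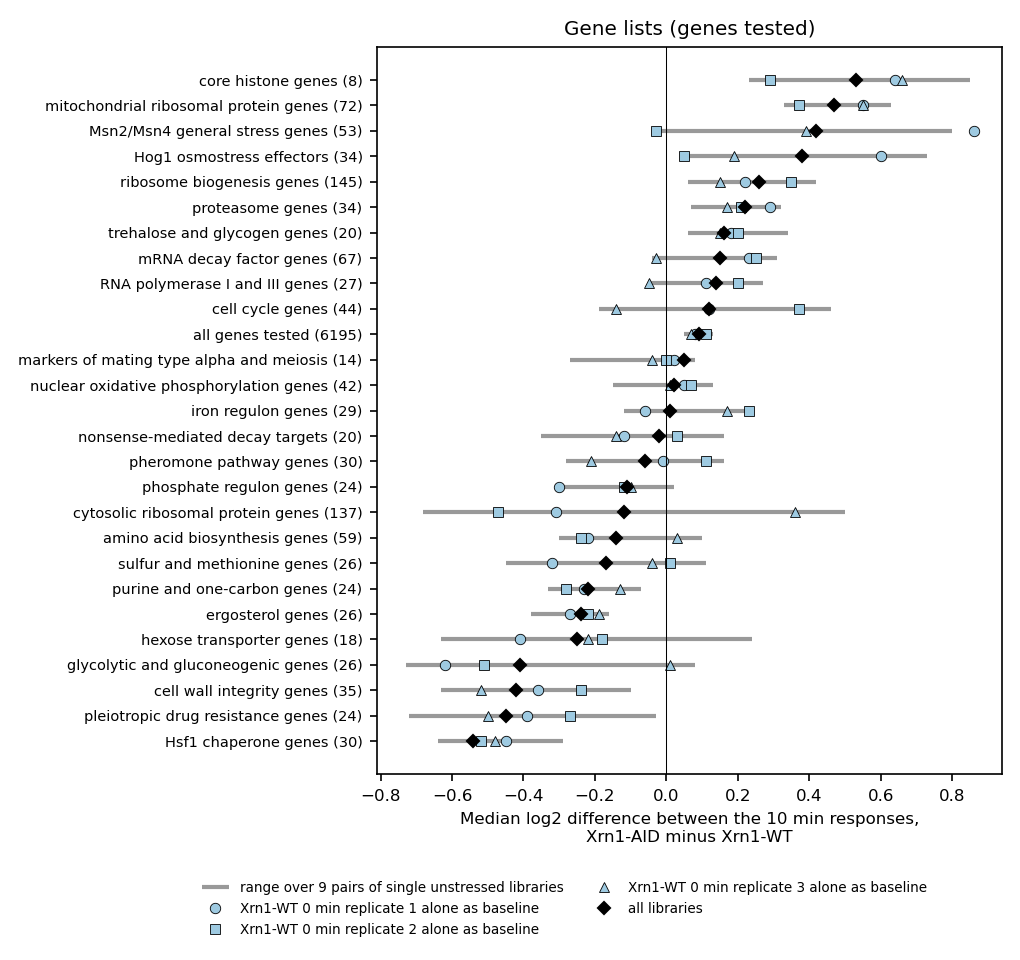
Median difference between the 10 min responses (horizontal axis, log2, Xrn1-AID minus Xrn1-WT) for each gene list, with the number of genes tested; diamonds use all libraries, circles, squares and triangles 1 unstressed Xrn1-WT library as the baseline, and grey bars span the 9 pairs of single unstressed libraries. Hsf1 chaperone genes stay at -0.64 to -0.29 and mitochondrial ribosomal protein genes at 0.33 to 0.63, whereas cytosolic ribosomal protein genes run from -0.68 to 0.50. Diamonds are medians of edgeR estimates, and the other marks are medians of differences of log2 CPM.

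Dependence on the baseline was also counted over all genes. With all 6 unstressed libraries 107 genes had an interaction above 1 log2 and 233 below -1. With unstressed Xrn1-WT replicates 1, 2 and 3 alone as that arm's baseline the numbers were 182 and 297, 179 and 351, and 377 and 509. With Xrn1-AID replicates 1, 2 and 3 alone they were 208 and 345, 123 and 266, and 165 and 244. Replicate 3 of Xrn1-WT thus gave the most genes in both directions. The sign was the same over all 9 pairs for 2029 of the 6195 genes (32.8%), and for 48 of the 48 called genes, which the choice of called genes favours. Leaving out 1 unstressed library moved the called genes by at most 0.45 log2, with a median of 0.12 for the largest move per gene, and all genes by a median of 0.19.

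Omission of unstressed Xrn1-WT replicate 3, which moved the count most, called 137 genes, 47 of them among the 48. Of the genes it added at a mean of at least 10 CPM, the 4 with the largest higher difference are described. They were STL1 and HSP12 (above), YNL194C, of the plasma membrane, and NQM1, a transaldolase. NQM1 was at 29.2, 3.30 and 4.41 CPM in unstressed Xrn1-WT and at 4.18, 4.43 and 4.53 CPM in unstressed Xrn1-AID. At 10 min it was at 88.3, 121 and 148 CPM and at 258, 257 and 284 CPM. Its difference was 2.64 ± 0.76 (edgeR adjusted p = 0.0915), 3.08 without replicate 3 (adjusted p = 0.0354) and 0.98 without replicate 1 (adjusted p = 0.153). YNL194C was at 2.43, 0.485 and 0.562 CPM without salt and 71.4, 61.4 and 137 CPM with it in Xrn1-WT, and at 0.430, 0.528 and 0.306 CPM and 302, 195 and 241 CPM in Xrn1-AID. Its difference was 2.85 ± 0.72 (edgeR adjusted p = 0.0695), 3.22 without replicate 3 (adjusted p = 0.0366) and 1.77 without replicate 1 (adjusted p = 0.238). Without replicate 2 all 4 were called too, at adjusted p of 0.0278 for STL1, 0.018 for HSP12, 0.0278 for NQM1 and 0.0348 for YNL194C, and without replicate 1 none was. With all libraries DESeq2 called STL1 (adjusted p = 0.0226), HSP12 (0.0169) and YNL194C (0.00128) and gave NQM1 no adjusted p, and voom called all 4 (0.00216 to 0.00734).

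NCP1, MET17, ZPS1 and YIL177C had the largest lower differences among the genes that the same omission added at a mean of at least 10 CPM. With all libraries edgeR called none of them, DESeq2 called MET17 (adjusted p = 0.00494) and YIL177C (0.0166), and voom called all 4. NCP1, the reductase of cytochrome P450 enzymes, was at 231, 164 and 370 CPM in unstressed Xrn1-WT and at 313, 303 and 236 CPM at 10 min. In Xrn1-AID it was at 239, 316 and 282 CPM and then at 181, 181 and 165 CPM. Replicate 3 was the highest unstressed library, and the difference went from -0.82 ± 0.31 (edgeR adjusted p = 0.175) to -1.16 without it (adjusted p = 0.0286). MET17, of sulfide assimilation, went from -1.03 ± 0.25 (edgeR adjusted p = 0.0659) to -1.13 (adjusted p = 0.0366), ZPS1, a zinc-regulated surface protein, from -0.76 ± 0.35 (edgeR adjusted p = 0.273) to -1.12 (adjusted p = 0.0474), and YIL177C from -0.93 ± 0.26 (edgeR adjusted p = 0.0858) to -1.09 (adjusted p = 0.04). The annotation of MET17 overlaps that of YLR302C on the opposite strand by 12 bases, and YIL177C belongs to a family of near-identical genes at chromosome ends, so its counts are uncertain.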

How the data were processed

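Poly(A) RNA-seq libraries (stranded Illumina mRNA kit, single reads of 50 bases, HiSeq, per the labels' protocols) had been reduced by the authors to a table of raw counts per gene, in 17 libraries. The submitters' processing notes name TopHat2 2.1.0, featureCounts 1.5.1, DESeq2 1.22.2 and sacCer3, without roles; the strand setting and the treatment of reads with several alignments are not given in the sources used here. The deposited counts covered 7126 features; locus tags of the RefSeq annotation of R64 were found for 6048 (84.87%). Of the 63 named or called genes 1 overlaps another annotated gene.

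The test was edgeR 4.0.16 run in R 4.3.3 on these counts (TMM factors, 6195 genes left by filterByExpr, robust glmQLFit) with 1 mean for each of the 6 groups, all 17 libraries sharing the spread. SE is the log2 difference divided by the square root of F. Because the model compares mean counts, a single high library weighs more in it than in single-baseline values, which are differences of log2 CPM with a prior count of 2. The procedure was run on simulated counts, drawn independently for each gene and library. These lacked the library-wide deviations described above, so the simulation cannot show how the procedure behaves under them.

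Alternatives were DESeq2 1.42.0 (Wald test; size factors), limma 3.58.1 voom with sample weights, library size alone, no filter or one at 10 CPM, the 12 libraries alone, replicate blocks and omission of each library. Added after the data were seen were a spline correction for gene length and GC content (93.14% of tested genes) and joint omission of Xrn1-WT 0 min replicate 3 and Xrn1-WT 10 min replicate 2.

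Genes named were XRN1, a panel of 8, the 8 called genes per direction with the largest difference at a mean of at least 10 CPM, the called member of each list with the largest difference, the 4 called genes at that level that 1 unstressed library moved most, and, at that level, the 4 per direction that edgeR called without the unstressed library that moved the count most and not with all libraries. Genes called in every omission would have been named too, and none was. Other called genes are named by pattern or role, after their values were seen. The members, gene lists and tests were chosen with earlier results of these data known. No list was tested as a set.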

Additional observations from a re-analysis of the deposited data

Results flagged for a closer look

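The genes below are those described under the naming rule whose response to 10 min of NaCl differed between Xrn1-AID and Xrn1-WT at an edgeR adjusted p under 0.05 for the difference itself. Lower responses in Xrn1-AID were those of FLO11 (-2.22 log2), BTN2 (-2.18), ATG41 (-2.01), SSA4 (-1.91), ALG3 (-1.50), MIR1 (-1.46), TIR4 (-1.41), APJ1 (-1.37), FIG2 (-1.25), MET6 (-1.23), FIT1 (-1.18), FLR1 (-1.18) and ILV1 (-0.92). Higher responses were those of PHM6 (1.77), CIT2 (1.42), COG8 (1.21), THI80 (1.19), CEF1 (1.19), FAR10 (1.15), ULP1 (1.14) and INA22 (1.03). FLO11, ATG41 and MIR1 rose past the threshold in Xrn1-WT and fell past it in Xrn1-AID.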

How the results depend on the processing

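The number of genes that differed between the 10 min responses was 48, and depended on the settings more than any other count. It was 19 with the 12 libraries alone, 306 with the DESeq2 Wald test (487 genes without an adjusted p), 0 with library size alone, 1503 with limma voom and sample weights, which gave unstressed Xrn1-WT replicate 3 a weight of 0.18, and 73 without both libraries that stood apart (37 of them among the 48). It was 38 to 52 with DESeq2 size factors, no filter, a filter at 10 CPM and the length and GC correction. Leaving out 1 library gave 0 to 137 calls. The 48 genes kept their sign with the DESeq2 test, voom and the length and GC correction, and 47 were called by edgeR, DESeq2 and voom. All of these use the same counts, and choosing the genes by edgeR's calls favours both results.

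The deviations showed no pairing by replicate number. Of 18 pairs with the same number 4 had a correlation of deviations over 0.1 (-0.74 to 0.43), and 2 of 12 libraries correlated best with their own number. The deviations also followed gene length, so they cannot decide whether same-numbered libraries shared a culture or batch. The labels do not say. With a replicate block on the 12 libraries 0 genes were called in the interaction (smallest adjusted p 0.172, 678 at an unadjusted p under 0.05), 1317 between arms at 0 min and 919 at 10 min.

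Within arms and times, library size alone gave 1113 calls between arms at 0 min and 1149 at 10 min, and voom gave 3661 and 2631, and 3945 for the Xrn1-AID response. Leaving out 1 library gave 2420 to 2904 calls for the Xrn1-WT response, 1724 to 2486 for Xrn1-AID, 1331 to 2427 between arms at 0 min (lowest without Xrn1-AID replicate 3) and 1031 to 2240 at 10 min (lowest without Xrn1-AID replicate 1). The 21 called genes described under the naming rule kept their sign in all 587 cases, which their choice by call favours. Of the 15 others ENA1 changed it, from -0.25 to 0.10 with unstressed Xrn1-WT replicate 2 alone and to 0.01 with unstressed Xrn1-AID replicate 2 alone as the baseline. List medians changed sign in 37 of 593 cases, in 7 of the 27 lists, the cytosolic ribosomal protein genes among them. Unlike the gene cases, these list cases left out single unstressed libraries as the baseline, under which further lists changed sign. Among them were the Msn2/Msn4 genes (0.42 to -0.03 with Xrn1-WT replicate 2) and the glycolytic and gluconeogenic genes (-0.41 to 0.01 with Xrn1-WT replicate 3). The hexose transporter genes went from -0.25 to 0.23 with Xrn1-AID replicate 2. Values of named genes kept their side of the threshold or moved within the spread in 655 cases, lost a call in 243, gained one in 32 and moved further in 76. List medians moved by less than the spread in 550 cases and further in 43. The cause of these changes was not tested. With 3 libraries per group the called differences had an SE of 0.16 to 0.73 log2, and the smallest difference called was 0.84 log2.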
